A study of Mus musculus with 12 samples.

Results

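The RNA sequencing of 3T3-L1 cells was examined for 10 genes that carry fatty acids into an adipocyte and prepare them for use: Lpl, Angptl4, Gpihbp1, Vldlr, Cd36, Slc27a1, Fabp4, Fabp5, Acsl1 and Dbi. They were chosen by gene name, among 39423 genes in the table, with earlier results of these data known. 3T3-L1 is an established mouse preadipocyte line, which the labels call preadipocytes at each time. All 12 libraries came from cells treated with MDI (also DMI), the usual inducer of differentiation that combines insulin with dexamethasone and isobutylmethylxanthine. There were 4 groups with 3 libraries each: control siRNA (labelled NC, here siCtrl) and siRNA against PRMT1 (siPRMT1), at 24 hours (day 1) and 72 hours (day 3) of MDI. The study used transient siRNA transfection before induction, and no untreated or uninduced group was analysed here. PRMT1 is the main enzyme that places asymmetric dimethylation on arginine, and the design asks how its depletion changes gene expression early and late in adipogenesis.

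Fat cells take up fatty acids from triglyceride-rich lipoproteins. Lipoprotein lipase, the product of Lpl, is secreted by the fat cell, is carried across the capillary wall by GPIHBP1 of endothelial cells, and frees fatty acids there, while ANGPTL4 inhibits it. VLDLR binds the lipoproteins, CD36 and the transport protein encoded by Slc27a1 (FATP1) move fatty acids across the cell membrane, and FABP4 and FABP5 bind them in the cytosol. Acyl-CoA synthetase ACSL1 then joins them to coenzyme A, and the acyl-CoA binding protein encoded by Dbi carries the product. Several of these genes are textbook targets of PPARγ, the receptor that drives adipogenesis.

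Prmt1 itself was at 82.9, 83.4 and 91.3 FPKM in siCtrl and 43.8, 38.6 and 41.4 FPKM in siPRMT1 cells at day 1, and at 111, 120 and 140 against 62.0, 71.7 and 68.5 FPKM at day 3. FPKM are counts scaled to the length of the gene and the total count of the library. Every siPRMT1 library was below every siCtrl library of its day, as the labels say, and 48.1% and 54.5% of the control mean were left. The libraries held 15116462 to 42357137 counts on genes. siCtrl replicate 3 at day 1 stood apart from the other siCtrl libraries of that day, with a chi-square per gene of 30.8 and 50.6 against them, where the other pairs of replicates had 4.14 to 15.8. Without it 504 genes were called higher and 369 lower at day 1, in place of 267 and 220. Several results are given with and without it, while the percentages of all genes called are those with it.

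Sums of cell type markers differed between the groups. The 6 adipocyte markers, Adipoq, Plin1, Cidec, Lep, Retn and Cfd, summed to 5.35 to 9.16 FPKM in siCtrl and 3.27 to 4.4 in siPRMT1 libraries at day 1, with Lep at 0 in all 6 libraries, and to 1202 to 1360 against 818 to 868 FPKM at day 3. The 6 markers of preadipocytes or fibroblasts, Pdgfra, Pdgfrb, Dlk1, Col1a1, Thy1 and Ly6a, summed to 874 to 906 against 814 to 826 FPKM at day 1 and to 240 to 267 against 278 to 332 FPKM at day 3. These did not all move with their sum. At day 1 the siPRMT1 medians of Thy1 (84.8 against 72.3 FPKM) and Pdgfrb (19.1 against 16.4) were higher, and those of the others lower. At day 3 Dlk1, Thy1 and Col1a1 overlapped between the groups, while Ly6a, Pdgfra and Pdgfrb were higher in all siPRMT1 libraries. The 5 macrophage markers summed to 1.76 to 2.86 FPKM in all libraries, mostly Cd68, with Ptprc at 0 in every library. In these bulk libraries, fewer adipocytes and less RNA of these genes per adipocyte cannot be told apart, and the part of this shift in adipocyte markers in the differences given for the 10 genes was not tested.

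Positions are those of mouse build GRCm38. Lpl (chr8:68880555-68906932), Acsl1 (chr8:46471037-46536051) and Slc27a1 (chr8:71568873-71587304) lie on the plus strand of chromosome 8. Fabp5 (chr3:10012585-10016610, plus strand) and Fabp4 (chr3:10204342-10208602, minus strand) are 187731 bases apart on chromosome 3. Cd36 (chr5:17781690-17888959), Dbi (chr1:120113280-120121096) and Angptl4 (chr17:33774900-33781575) are on minus strands, and Gpihbp1 (chr15:75596635-75598213) and Vldlr (chr19:27216489-27254231) on plus strands. These spans are of whole genes. No exon of another gene of the table overlaps their exons, and overlap with introns was not examined.

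RefSeq promoter windows of build GRCm38.p6, from 250 bases before to 50 after a start site, were at hand for 5 of the 10 genes: Cd36, Acsl1, Vldlr, Slc27a1 and Dbi, with 10 windows. The part before the start site is printed for 3 of them because their RNA behaved differently: Cd36 rose most between the days, Acsl1 was called lower in siPRMT1 cells at day 3, and Vldlr was the one gene with higher values in siPRMT1 cells. No match stands in the Vldlr stretch printed, while a second Vldlr window, not printed, holds CCAAT and GGGCGG once each before its start site. A second Acsl1 window, also not printed, holds CCAAT and no GGGCGG there. Capitals mark AGGTCA (the half-site of nuclear receptors), CCAAT and GGGCGG (the GC box), on either strand. The Cd36 stretch, chr5:17835897-17836146 on the minus strand, ends at a start site inside the listed gene. The Acsl1 stretch is chr8:46470787-46471036 and the Vldlr stretch chr19:27216234-27216483, both on the plus strand.
Cd36: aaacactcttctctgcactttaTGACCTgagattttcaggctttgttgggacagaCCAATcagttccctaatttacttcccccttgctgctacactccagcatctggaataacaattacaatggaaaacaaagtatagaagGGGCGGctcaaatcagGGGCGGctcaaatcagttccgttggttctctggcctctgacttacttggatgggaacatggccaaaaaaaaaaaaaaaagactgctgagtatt
Acsl1: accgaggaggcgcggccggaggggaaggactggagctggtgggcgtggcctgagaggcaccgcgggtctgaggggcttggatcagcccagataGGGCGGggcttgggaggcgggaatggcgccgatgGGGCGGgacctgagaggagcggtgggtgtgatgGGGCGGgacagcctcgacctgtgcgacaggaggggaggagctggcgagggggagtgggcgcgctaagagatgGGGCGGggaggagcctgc
Vldlr: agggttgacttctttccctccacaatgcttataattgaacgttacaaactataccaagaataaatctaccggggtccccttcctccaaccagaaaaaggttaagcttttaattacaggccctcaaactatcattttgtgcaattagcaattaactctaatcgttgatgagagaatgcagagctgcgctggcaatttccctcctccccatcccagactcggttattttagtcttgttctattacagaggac
Over all 10 windows, AGGTCA was found in 1, that of Cd36, against 16.3% of all 32851 RefSeq windows of the same length. CCAAT was found in 7 of the 10 windows (37.4% of all windows) and GGGCGG in 5 (35.7%). The Dbi windows overlap and share 1 CCAAT site, which is counted in both. AGGTCANAGGTCA, which is 2 half-sites with 1 base between them and so overlaps with AGGTCA, was found in none (0.0396% of all windows). The C/EBP palindrome TTGCGCAA (0.183%) and TATAAA (13.6%) were also found in none. These matches describe letters only.

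**Figure D1:**
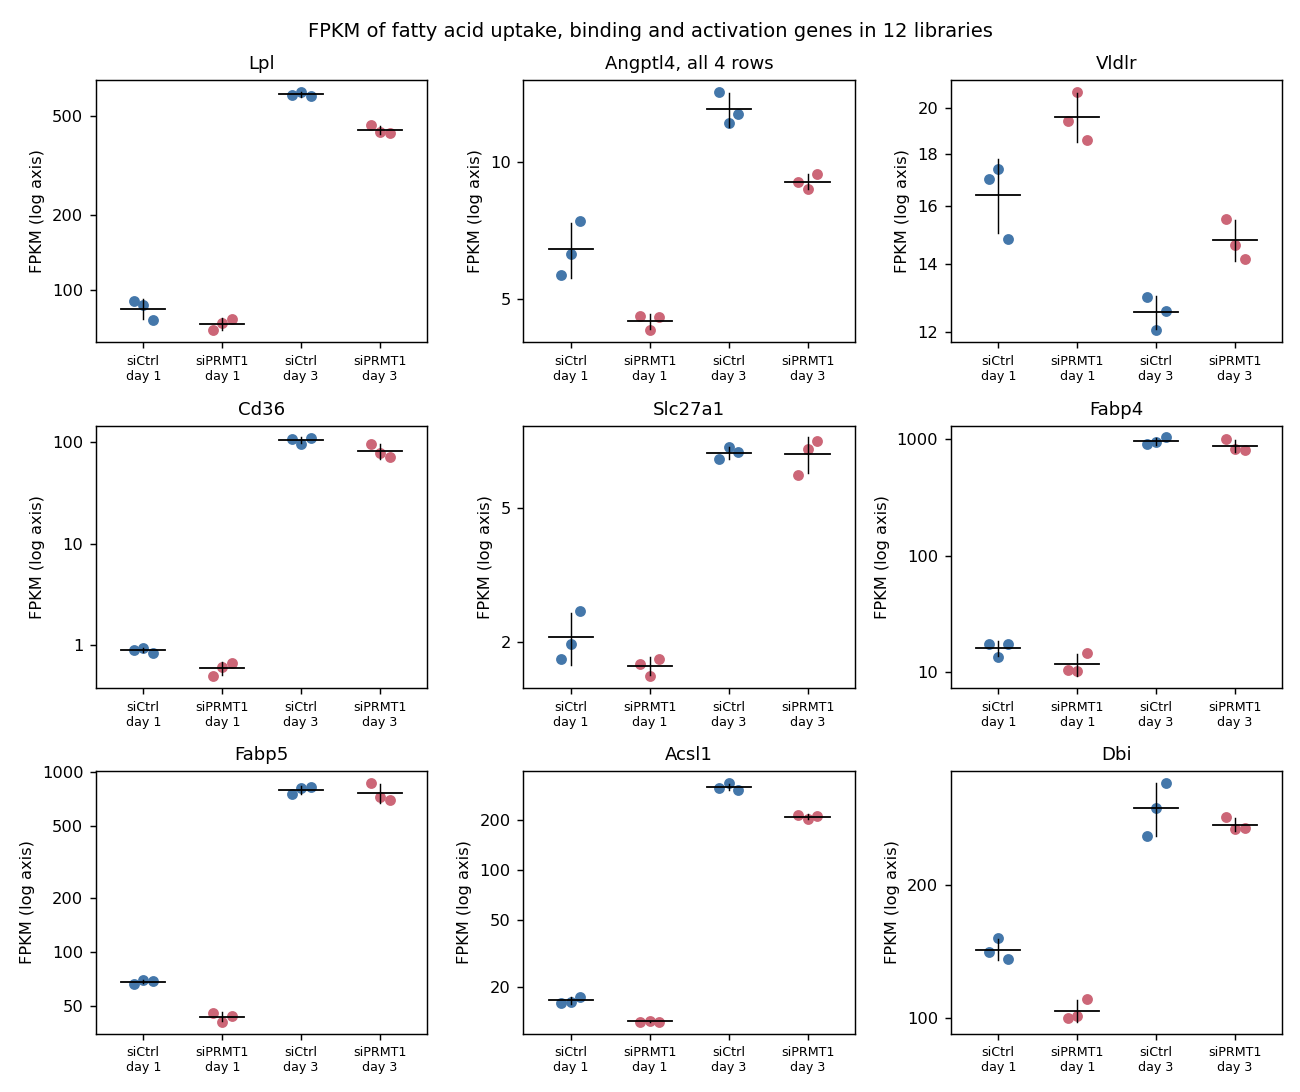
FPKM of 8 of the genes and of Angptl4 with its 4 rows added together, on a log axis, in the 12 libraries. Each point is a library, the horizontal line the mean of 3 libraries and the vertical line ± 1 SD. From day 1 to day 3 all but Vldlr rose, and siPRMT1 points lie below siCtrl points for Acsl1 and Angptl4 on both days.

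Lpl, the lipase at the head of the pathway, was among the most abundant of the 10 genes on both days. It was at 90.0, 86.6 and 75.3 FPKM in siCtrl and 68.7, 73.8 and 76.3 in siPRMT1 cells at day 1, where the groups overlapped in FPKM. In CPM, counts scaled to a common library size by TMM normalization, they did not, with 330.2 to 382 CPM in siCtrl against 278 to 303 CPM. At day 3 it was at 608, 629 and 605 FPKM in siCtrl and 461, 433 and 428 in siPRMT1 cells, so that all siPRMT1 libraries were lower. The mean was 28.2% lower at day 3 (log2 fold change -0.48, standard error 0.0670, edgeR's adjusted p = 1.7e-04). This passed the test but fell short of the absolute log2 fold change of 0.5 that a call also needed, and it was called without siCtrl replicate 1 (-0.51) or siPRMT1 replicate 1 (-0.53) of day 3. At day 1 the log2 fold change of Lpl was -0.25 (standard error 0.0831, adjusted p = 0.105), and without siCtrl replicate 3 it was -0.33 (adjusted p = 7.9e-04). Between the days Lpl rose 7.32-fold in siCtrl (log2 fold change 2.80) and 6.04-fold in siPRMT1 cells (2.58), and the difference between these rises did not pass the test (-0.21, 95% interval -0.41 to -0.01, adjusted p = 0.157).

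Angptl4, whose product inhibits the lipase, stood in the table under 4 names. The row on chromosome 17 held 3 counts over the 12 libraries, and 3 rows with a number suffix on scaffolds outside the assembled chromosomes held 4097, 269 and 1, or 93.8%, 6.16% and 0.0229% of the sum of 4370. Rows of near-identical sequence can share reads, and how reads that fit several places were counted is not given in the sources used here. The chromosome 17 row was too low to be tested, so the rows were added together, a choice made after the values were seen. In FPKM the sum amounted to 5.64, 6.28 and 7.41 for siCtrl and 4.57, 4.26 and 4.55 for siPRMT1 cells at day 1, and 14.3, 12.2 and 12.8 against 9.06, 8.74 and 9.42 at day 3. All siPRMT1 libraries were below all siCtrl libraries of the same day, and the mean was 30.8% lower on both days.

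The summed Angptl4 was called lower at day 1 (log2 fold change -0.59, standard error 0.116, edgeR's adjusted p = 0.0219) and at day 3 (-0.54, standard error 0.0894, adjusted p = 6.8e-04). The day 1 call was lost in 5 of the 6 fits that left out 1 library. Without siCtrl replicate 3 the value was -0.47, under the fold threshold (adjusted p = 0.0041). Without siCtrl replicate 2 or siPRMT1 replicates 1, 2 or 3 it was -0.59, -0.62, -0.57 and -0.59, with adjusted p of 0.0924, 0.0936, 0.0965 and 0.110. At day 3 the call was lost without siCtrl replicate 1, again under the fold threshold (-0.48, adjusted p = 0.0037). The largest suffixed row alone was also called lower on both days (-0.59 and -0.52, adjusted p = 0.0285 and 0.0011). The second was at -0.26 (adjusted p = 0.671) and -0.75 (adjusted p = 0.0284). Over the days the sum rose 2.03-fold in both siCtrl and siPRMT1 cells (log2 fold changes 0.96 and 1.01). The change in the knockdown effect between days was 0.05 (95% interval -0.27 to 0.38, adjusted p = 0.863).

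**Figure D2:**
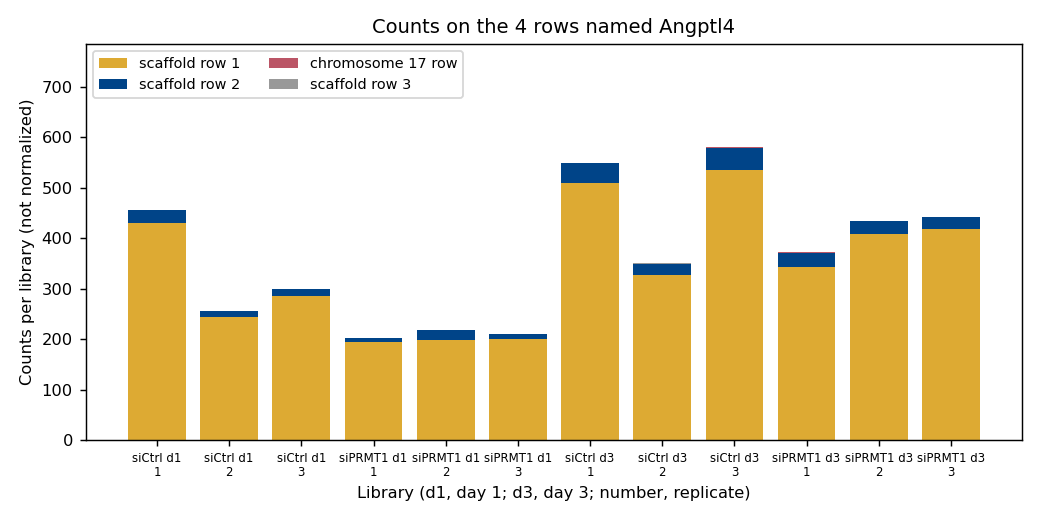
Raw counts on the 4 rows named Angptl4 in each of the 12 libraries, stacked, without normalization. Nearly all counts stand on scaffold row 1, with a smaller share on scaffold row 2, and the chromosome 17 row holds 3 counts in all.

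Gpihbp1 encodes the endothelial protein that anchors the lipase. It had 0 counts in all 6 libraries of day 1, 1 count in each siCtrl library and 1, 2 and 3 counts in the siPRMT1 libraries of day 3. It was left out by the filter on low counts, and a difference was not detectable at this depth. The defining endothelial markers were near 0 as well: Pecam1, Cdh5, Kdr, Tek and Emcn summed to 0.12 to 0.98 FPKM in every library, with Kdr at 0 in all siCtrl libraries of day 3.

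Vldlr, the receptor for very low density lipoprotein, was the one gene of the 8 tested with higher values in siPRMT1 cells. Day 1 values were 17.01, 17.4 and 14.8 FPKM in siCtrl and 19.4, 20.8 and 18.6 in siPRMT1 cells. Day 3 values were 13.0, 12.1 and 12.6 against 15.5, 14.7 and 14.2 FPKM. The groups did not overlap on either day, and the means were 19.3% and 17.8% higher. The log2 fold changes were 0.20 (standard error 0.0865, edgeR's adjusted p = 0.189) and 0.23 (standard error 0.0689, adjusted p = 0.0319), of which the second passed the test without reaching the fold threshold. It missed the test, with adjusted p up to 0.123, in 4 of the 6 fits that left out 1 library of day 3. The day 1 value was 0.13 (adjusted p = 0.120) without siCtrl replicate 3 of that day. Vldlr was lower on day 3 than on day 1, by -0.46 on the log2 scale for siCtrl and -0.42 for siPRMT1 cells (adjusted p = 0.0011 and 6.9e-05). Both passed the test but not the fold threshold, and the siCtrl value passed that too without replicate 3 of day 1 (-0.53) or replicates 1 or 3 of day 3 (-0.52 and -0.51).

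Cd36, the scavenger receptor that takes up long-chain fatty acids, was barely transcribed at day 1. It was at 0.91, 0.94 and 0.85 FPKM in siCtrl and 0.50, 0.62 and 0.67 in siPRMT1 cells, from 47 to 157 counts a library. At day 3 it had reached 107.5, 96.4 and 108.8 FPKM in siCtrl and 96.8, 78.4 and 70.9 in siPRMT1 cells. Its rise between the days was the largest of the 8 genes tested, 116-fold in siCtrl and 138-fold in siPRMT1 cells (log2 fold changes 6.78 and 7.09). At day 1 all siPRMT1 libraries were below all siCtrl libraries (log2 fold change -0.65, standard error 0.155, edgeR's adjusted p = 0.0409). This call was lost in 5 of 6 fits without 1 library: without siCtrl replicates 1 or 2 the adjusted p was 0.103 and 0.134, and without siPRMT1 replicates 1, 2 or 3 it was 0.144, 0.111 and 0.106. Without siCtrl replicate 3 the adjusted p was 0.0081 at a log2 fold change of -0.69. The call was also lost in limma on log2(FPKM + 1) with no filter (-0.25, adjusted p = 0.117). At day 3 siPRMT1 replicate 1 overlapped with the control libraries, and the log2 fold change was -0.35 (standard error 0.0985, adjusted p = 0.0243), past the test but under the fold threshold. The difference of the effect between the days did not pass the test (0.32, 95% interval -0.10 to 0.73, adjusted p = 0.314).

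Slc27a1, which encodes fatty acid transport protein FATP1, was low throughout. It was at 1.77, 1.97 and 2.47 FPKM in siCtrl and 1.72, 1.58 and 1.78 in siPRMT1 cells at day 1, and the groups overlapped by 1 library in FPKM. In CPM they did not overlap, with 7.38 to 10.6 in siCtrl against 6.14 to 6.91. Day 3 values were 6.97, 7.59 and 7.32 against 6.25, 7.51 and 7.93 FPKM, and the siPRMT1 libraries lay on both sides of the control libraries. The knockdown difference was -0.33 on the log2 scale at day 1 (standard error 0.140, edgeR's adjusted p = 0.189) and -0.01 at day 3 (95% interval -0.22 to 0.19, adjusted p = 0.932). Without siCtrl replicate 3 of day 1 the first was -0.19 (adjusted p = 0.228). Slc27a1 rose 3.52-fold over the days in siCtrl and 4.27-fold in siPRMT1 cells.

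Fabp4 and Fabp5, the fatty acid binding proteins of the fat cell and of epidermis and macrophages among others, changed their order between the days. Fabp5 was the higher gene at day 1: the ratio of Fabp4 to Fabp5 FPKM within a library was 0.192 to 0.328. At day 3 the ratio was 1.14 to 1.25 in the 6 libraries, so Fabp4 had passed Fabp5 in each of them.

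Fabp5 was at 67.0, 69.9 and 69.1 FPKM in siCtrl and 46.0, 41.1 and 44.5 in siPRMT1 cells at day 1, without overlap and with little spread. At day 3 it was at 753, 813 and 822 FPKM in siCtrl and 867, 728 and 702 in siPRMT1 cells, where siPRMT1 replicate 1 was the highest and the other siPRMT1 libraries were the lowest. The mean of siPRMT1 cells was 36.2% lower at day 1 (log2 fold change -0.70, standard error 0.0737, edgeR's adjusted p = 0.0030), and no fit that left out 1 library lost this call. The day 3 mean was 3.82% lower (log2 fold change -0.06, 95% interval -0.24 to 0.12, adjusted p = 0.662). In fits without 1 library the day 3 value ran from -0.17 to -0.01, with adjusted p from 0.130 to 0.951. The change of the knockdown effect between the days was 0.66 (standard error 0.116, 95% interval 0.41 to 0.90, adjusted p = 0.0023), tested over the 12 libraries. The rise of Fabp5 between the days was accordingly 11.6-fold in siCtrl and 17.5-fold in siPRMT1 cells. The interaction was called in all 12 fits without 1 library, with values from 0.55 to 0.72, and without siCtrl replicate 3 of day 1 it was 0.62.

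Fabp4, the most abundant of the 10 genes at day 3, was at 17.3, 13.5 and 17.5 FPKM in siCtrl and 10.4, 10.2 and 14.6 in siPRMT1 cells at day 1. Day 3 values were 899, 933 and 1030 against 997, 827 and 799 FPKM. The groups overlapped on both days. It rose 59.3-fold in siCtrl and 74.6-fold in siPRMT1 cells. The knockdown difference was -0.51 on the log2 scale at day 1 (standard error 0.163, edgeR's adjusted p = 0.0974) and -0.13 at day 3 (95% interval -0.32 to 0.06, adjusted p = 0.340). Without siCtrl replicate 3 of day 1 the first was -0.47 with an adjusted p of 0.0301, still short of a call by the fold threshold. The call was made by DESeq2 (adjusted p = 0.0420), with all 12 libraries in 1 model (0.0220) and with the replicate number as a block (0.0344). Its change between the days, 0.40 (95% interval 0.01 to 0.80), did not pass after adjustment (adjusted p = 0.177).

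Acsl1, the acyl-CoA synthetase that commits fatty acids to esterification or oxidation, separated the groups on both days. It was at 15.9, 16.3 and 17.4 FPKM in siCtrl and 12.3, 12.4 and 12.3 in siPRMT1 cells at day 1, and at 313, 334 and 306 against 216, 203 and 212 FPKM at day 3. Every siPRMT1 library was below every siCtrl library of its day, by 25.3% and 33.8% in the mean. At day 3 Acsl1 was called lower (log2 fold change -0.60, standard error 0.0692, edgeR's adjusted p = 3.4e-05), also in each of the 6 fits without 1 library. At day 1 it passed the test at -0.47 (standard error 0.0643, adjusted p = 0.0065), just under the fold threshold. In fits without 1 library the day 1 value ran from -0.497 to -0.438, with adjusted p from 1.2e-04 to 0.0511. The change of the effect between the days did not pass the test (-0.11, 95% interval -0.29 to 0.07, adjusted p = 0.443). Acsl1 rose 19.2-fold in siCtrl and 17.02-fold in siPRMT1 cells.

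Dbi, the acyl-CoA binding protein found in most cells, was the most abundant of the 10 genes at day 1 in both groups. It was at 140.9, 151 and 136 FPKM in siCtrl and 100.2, 100.9 and 111 in siPRMT1 cells, without overlap, and at day 3 at 258, 298 and 339 against 284, 267 and 269 FPKM, where the siPRMT1 libraries lay within the control range. At day 1 it was called lower (log2 fold change -0.51, standard error 0.0752, edgeR's adjusted p = 0.0086). The call was lost without siCtrl replicate 2 (-0.46, adjusted p = 0.0537) and without siPRMT1 replicate 1 or 2 (adjusted p = 0.0575 and 0.0525), and the limma fits on FPKM gave -0.45 to -0.46, under the fold threshold. At day 3 the difference was -0.13 (95% interval -0.33 to 0.06, adjusted p = 0.334). In fits without 1 library it ran from -0.24 to -0.03, with adjusted p from 0.0452 to 0.846. The change between the days was 0.40 (95% interval 0.13 to 0.66) with an adjusted p of 0.0539, and it was called without siCtrl replicate 3 of day 1 (adjusted p = 0.0259) or of day 3 (0.50, adjusted p = 0.0151). Dbi rose 2.09-fold in siCtrl and 2.63-fold in siPRMT1 cells.

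**Figure D3:**
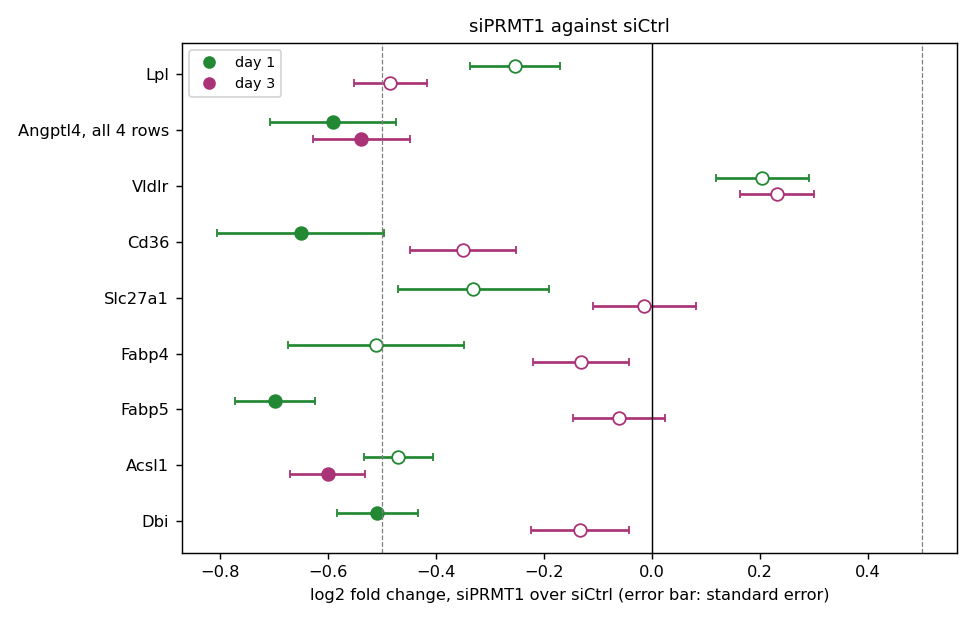
Log2 fold change of siPRMT1 over siCtrl at day 1 (green) and day 3 (purple), with the standard error, from edgeR. Filled points were called (adjusted p under 0.05 and past the dashed lines at 0.5). Fabp5 lies at -0.70 at day 1 and -0.06 at day 3, and Acsl1 at -0.47 and -0.60.

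Of the 10 genes, 8 passed the filter on low counts and entered the tests, and Gpihbp1 and the chromosome 17 row of Angptl4 did not. At day 1, 3 of the 8 were called lower in siPRMT1 cells (Fabp5, Cd36 and Dbi), where 1.61% of the 13689 genes tested were, and none was called higher, against 1.95%. With the adjusted p alone, 4 of 8 were lower and none higher, against 4.38% and 3.22% of all genes tested. By CPM, 6 of the 8, Lpl and Slc27a1 included, had siPRMT1 libraries all below and 1, Vldlr, all above the siCtrl libraries, which held for 20.8% and 10.4% of all genes tested. Their median log2 fold change was -0.49, and that of all genes tested 0.01. The genes were chosen with earlier results of these data known, so the shares here and below do not test them as a set.

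At day 3 only Acsl1 was called lower, where 3.8% of the 14039 genes tested were, and none was called higher, against 2.84%. With the adjusted p alone, 3 of 8 were lower (Acsl1, Lpl and Cd36) and 1 was higher (Vldlr), against 8.94% and 7.54%. The groups did not overlap in CPM for 2 of 8 on the lower side (Lpl and Acsl1) and 1 on the higher side, against 16.5% and 18.4%. The median over the 8 was -0.13, and that of all genes tested 0.01. Fabp5 was the 1 gene of 8 whose knockdown effect was called different between the days, in the positive direction, where 7.69% of 14612 genes were called in that direction and 4.63% in the other. Those shares stand for 1123 and 676 genes, which became 1760 and 1974 without siCtrl replicate 3 of day 1.

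Within the libraries of day 3, Lpl and Acsl1 differed between the groups in proportion to Fabp4. The ratio of Lpl to Fabp4 FPKM ranged from 0.587 to 0.676 for siCtrl and from 0.462 to 0.536 for siPRMT1 libraries. That of Acsl1 to Fabp4 was 0.297 to 0.358 in siCtrl and 0.217 to 0.266 in siPRMT1 libraries. Neither ratio overlapped between the groups, so Lpl and Acsl1 were lower relative to Fabp4 in each siPRMT1 library of that day. At day 1 both ratios overlapped: Lpl to Fabp4 ranged from 4.30 to 6.44 for siCtrl and from 5.24 to 7.26 for siPRMT1 libraries, and Acsl1 to Fabp4 from 0.921 to 1.21 and from 0.846 to 1.22. The ratios were chosen after the values were seen and are given without a test.

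**Figure D4:**
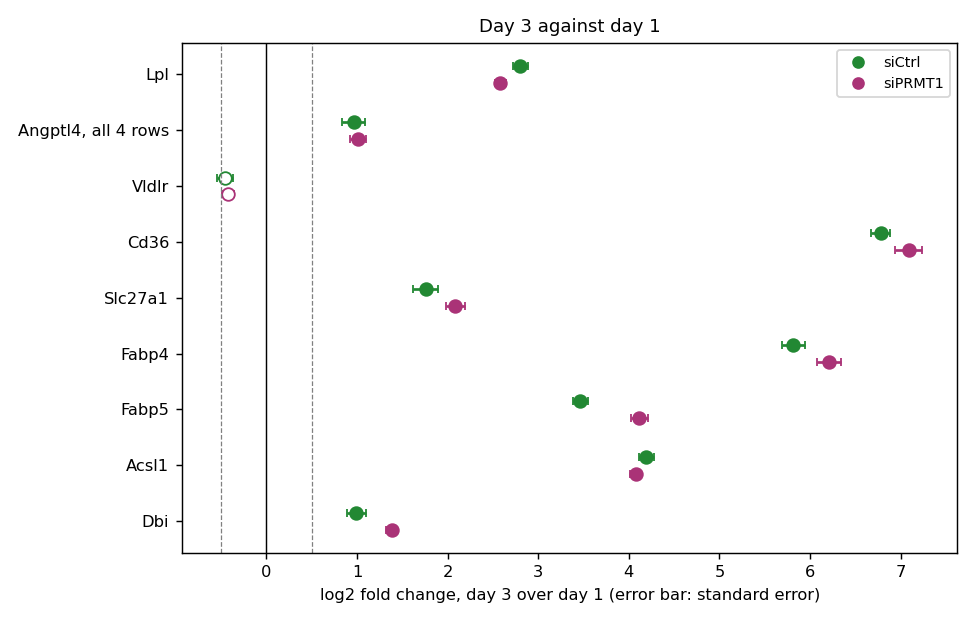
Log2 fold change from day 1 to day 3 in siCtrl (green) and siPRMT1 cells (purple), with the standard error, from edgeR, and dashed lines at 0.5. Cd36 and Fabp4 lie farthest to the right, between 5.81 and 7.09, and Vldlr alone lies below 0.

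From day 1 to day 3, 7 of the 8 genes tested were called higher in siCtrl cells, where 22.7% of 13829 genes were, and the same 7 in siPRMT1 cells, where 19% of 14224 genes were. Vldlr was the exception and passed the adjusted p on the lower side in both, as did 28.7% and 31.2% of all genes. The libraries of the 2 days did not overlap for any of the 8, with 7 higher and 1 lower, where 30.4% and 33.9% of all genes tested did so in siCtrl cells. In siPRMT1 cells these shares were 34.2% and 32.6%. The median log2 fold change of the 8 was 3.13 in siCtrl and 3.33 in siPRMT1 cells, while that of all genes tested was 0.00 in both. The comparisons share their libraries with those between siRNAs, so they are not independent of them. The sum of the adipocyte markers was also far higher at day 3, and its part in these rises was not tested.

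Per length, the order of the genes changed with the day. In siCtrl cells at day 1 Dbi, Lpl and Fabp5 led, followed by Acsl1, Vldlr and Fabp4, whose libraries overlapped, then Angptl4 (summed), Slc27a1, Cd36 and Gpihbp1. In siPRMT1 cells at day 1 Vldlr stood above Acsl1 and Fabp4, of which the last 2 overlapped, and the order was otherwise the same. At day 3 siCtrl cells had Fabp4, Fabp5 and Lpl in the lead, then Acsl1 and Dbi, which overlapped, Cd36, then Angptl4 and Vldlr, which overlapped, and Slc27a1. In siPRMT1 cells at day 3 Fabp4 and Fabp5 overlapped, Dbi stood above Acsl1, and Vldlr stood above Angptl4 without overlap.

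Other genes of the same pathway were counted from 8 lists with 70 genes, of which 69 were in the table. At day 1, 38 of them were tested, and 2 were called higher and 2 lower, against 1.95% and 1.61% of all genes tested. Acot2, a mitochondrial acyl-CoA thioesterase, was higher (1.53 ± 0.227 FPKM in siCtrl against 3.02 ± 0.290 FPKM, SD, n = 3, log2 fold change 0.95, edgeR's adjusted p = 0.0108), and so was the lipoprotein receptor gene Lrp8 (0.61, adjusted p = 0.0376). Pparg, the receptor gene named above, was lower (26.6 ± 1.73 against 19.2 ± 0.804 FPKM, -0.52, adjusted p = 0.0066), and so was Acsf2, an acyl-CoA synthetase (-0.51, adjusted p = 0.0333). Each of these calls was lost in some fits without 1 library. Pparg lost it without siCtrl replicate 3 (-0.48, under the fold threshold). Acot2 lost it without siCtrl replicate 2 (adjusted p = 0.0548) or siPRMT1 replicate 2 or 3 (0.0630 and 0.0716). Lrp8 lost it without siCtrl replicate 2 (adjusted p = 0.135) or any siPRMT1 replicate (0.132, 0.125 and 0.165). Acsf2 lost it without siCtrl replicate 2 (adjusted p = 0.0811), siCtrl replicate 3 (-0.38) or siPRMT1 replicates 1, 2 or 3 (0.0957, 0.109 and 0.124).

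At day 3, 44 of the 70 were tested, 7 were called lower and none higher, against 3.8% and 2.84% of all genes tested. The median log2 fold change of the 44 was -0.18. In the list of lipoprotein lipolysis, 4 of 8 tested were lower, among them Apoc3, an apolipoprotein that inhibits the lipase (1.22 ± 0.268 against 0.373 ± 0.223 FPKM, SD, n = 3, log2 fold change -1.67, edgeR's adjusted p = 0.0086). Angptl8, another regulator of the lipase (mean 1.19 against 0.443 FPKM, -1.43, adjusted p = 0.0080), was also a low-count gene. Endothelial lipase Lipg was another (mean 0.153 against 0.0633 FPKM, -1.35, adjusted p = 0.0327). The filter can keep such genes through the counts of 1 group, where they are higher. Where at least 10 counts were required in every library, 4 of the other pathway genes were called lower in place of 7. Lipg lost its call in 5 of 6 fits without 1 library: without siCtrl replicates 1, 2 or 3 the adjusted p was 0.113, 0.0666 and 0.0532, and without siPRMT1 replicates 2 or 3 it was 0.0820 and 0.109. Apoc3 lost it without siCtrl replicate 3 (adjusted p = 0.0589). The lipoprotein receptor genes Sort1 (16.6 ± 0.0656 against 10.9 ± 0.323 FPKM, -0.62, adjusted p = 1.8e-05) and Scarb1 (61.7 ± 3.75 against 42.5 ± 2.95 FPKM, -0.54, adjusted p = 1.8e-04) were lower, 2 of 6 in their list. Scarb1 fell under the fold threshold without siPRMT1 replicate 1 (-0.50). Of the acyl-CoA synthetases, 1 of 8 was called, Acsf2 (28.01 ± 0.999 against 17.5 ± 1.44 FPKM, -0.69, adjusted p = 2.6e-05).

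None of the 5 tested genes of membrane transport, the 4 of acyl-CoA binding or the 7 thioesterases was called at day 3. Of the list of 8 other fatty acid binding proteins, only Scp2 was tested at day 1 and only Scp2 and Fabp12 at day 3, and Fabp1 and Fabp3 were at 0 in every library. Scp2, a carrier of sterols and fatty acyl-CoA, was abundant, with means of 56.5 and 45.3 FPKM in siCtrl and siPRMT1 cells at day 1 and 132 and 114 FPKM at day 3. It passed the test without reaching the fold threshold at day 1 (-0.37, edgeR's adjusted p = 0.0216) and at day 3 (-0.22, 95% interval -0.37 to -0.07). For the change of the effect between days, 3 of the 44 other pathway genes were called in the positive and 4 in the negative direction, against 7.69% and 4.63% of all genes tested. Without siCtrl replicate 3 of day 1 the negative calls were 15. The positive calls were 1 without siCtrl replicate 1 or 2 of day 1, siPRMT1 replicate 1 or 3 of day 1, siCtrl replicate 2 of day 3 or siPRMT1 replicate 1 or 2 of day 3.

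**Figure D5:**
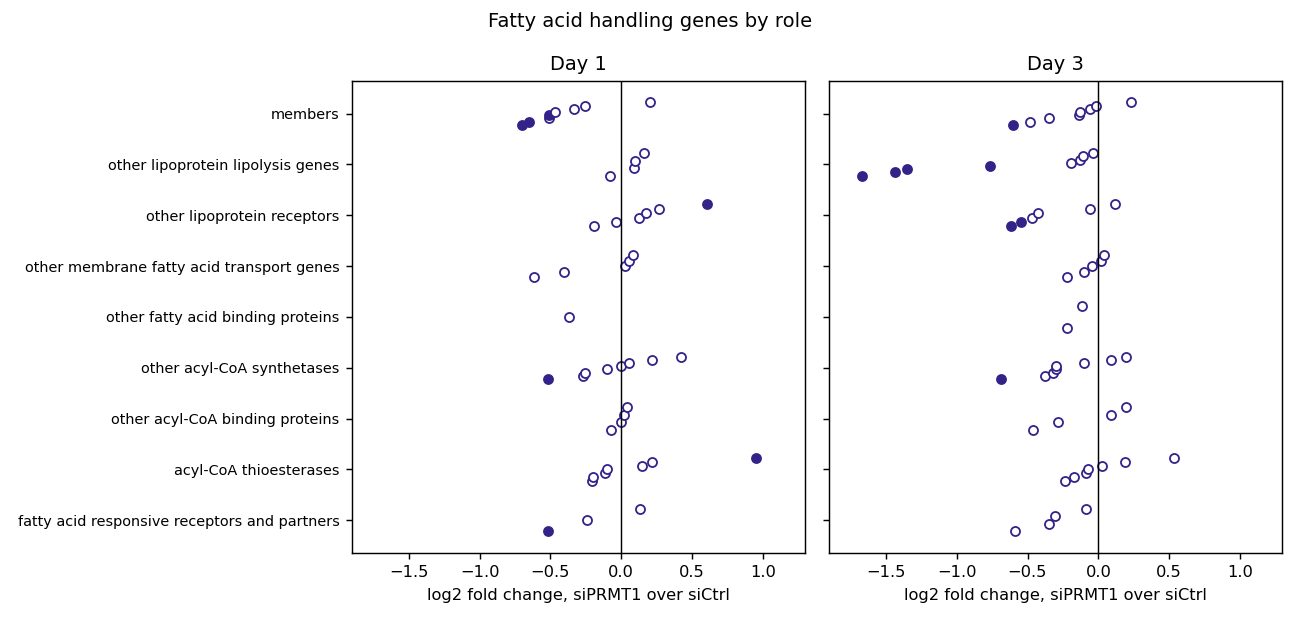
Log2 fold change of siPRMT1 over siCtrl for the 8 genes tested (top line) and for the genes of 8 further lists, at day 1 (left) and day 3 (right). Each point is a gene, and filled points were called. At day 1 the top line has 3 filled points, all below 0, and at day 3 it has 1, while the lipolysis list has 4.

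Over the 12 libraries, the 8 genes tested were compared by their log2 CPM with 9317 other genes of at least 10 CPM. The points share the large step between the days, so the correlations describe mainly that step. Lpl was most like Adhfe1 (Pearson r = 0.999) and, among the 10 genes, Acsl1 (0.998). Acsl1 was most like Tmcc3 (0.999) and Lpl. Cd36 and Fabp4 were both most like Pex11a (0.999 each) and each other (0.999). Fabp5 was most like Mc5r (0.999) and Cd36 (0.996), Slc27a1 like Slc12a7 (0.997) and Fabp5 (0.988), and Dbi like Etfb (0.991) and Fabp5 (0.973). Vldlr was most like Fam13b (0.984), and its correlation of largest size with another of the genes was negative, -0.91 with Cd36.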

How the data were processed

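Sequencing of mRNA from 3T3-L1 cells gave 12 libraries, 3 for each of siCtrl and siPRMT1 at day 1 and day 3. The labels do not say that replicates were separate cultures, so p-values measure only the spread between these libraries. Per the study's methods and the submitters' processing notes, reads were filtered with cutadapt (1.11) and mapped with HISAT2 (2.1.0). The notes also name RSEM (1.2.6). The deposited counts are whole numbers per gene without normalization. The deposited FPKM are per the authors' processing, from the counts, the gene length and the library total, and recomputed values differed by no more than 0.005. Gene lengths and positions come from the deposited table. The counting tool and its strand setting are not given in the sources used here. Names with a number suffix (2266 genes, 0.612% of counts) were kept as separate genes, apart from the sum for Angptl4, which was added after seeing the data.

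The members, the lists and the tests were chosen with earlier results of these data known. Counts were tested with edgeR 4.0.16 (quasi-likelihood, TMM normalization, filterByExpr, R 4.3.3) and Benjamini-Hochberg adjustment over all genes tested. Each pair of groups was fitted on its own 6 libraries, and the change of the knockdown effect between days on all 12. Genes were called at an adjusted p below 0.05 with a log2 fold change beyond 0.5 in either direction, and for the change between days by the adjusted p only. Standard errors were obtained from the log2 fold change and the F statistic (its size over the root of F). Counting intervals and low counts cover counting error only.

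Alternatives were DESeq2 1.42.0, RLE normalization, testing all genes, testing only those with 10 counts or more in each library, a block for replicate number, a single model over 12 libraries, dropping the fold threshold, voom with quality weights and tests on FPKM in limma 3.58.1 with a pseudocount of 1 or 0.1, and each library left out in turn. In the FPKM tests, fold changes are on the log2(FPKM + pseudocount) scale, which understates changes of low genes. These tests left out genes averaging under 1 FPKM, and the fit with a pseudocount of 1 was also run without this filter. Named outside the 10 genes were at most 3 called genes per list and knockdown comparison, by p-value, and the gene most like each member. The scripts were tested on simulated data.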

Additional observations from a re-analysis of the deposited data

Results flagged for a closer look

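The knockdown effect on Fabp5 differed between the days by 0.66 on the log2 scale (edgeR's interaction test, adjusted p = 0.0023), the only one of the 8 genes tested for which this was called. Of all 14612 genes tested, 7.69% were called in the positive direction and 4.63% in the negative. Adipocyte markers were lower in siPRMT1 cells on both days, and their part in the difference was not tested.

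Counts named Angptl4 stood on rows that a match by gene symbol does not reach. The row Angptl4_1 held 4097 counts and Angptl4_2 held 269 over the 12 libraries, against 3 counts on the row called Angptl4.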

How the results depend on the processing

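Fabp5 at day 1, Acsl1 at day 3, the rises of 7 genes between the days and the interaction of Fabp5 kept their direction and call under every alternative run. The count of genes called lower at day 1, 3 as reported, was 5 with all 12 libraries in 1 model (with Fabp4 and Acsl1). It was 1 in each of the 3 limma fits on FPKM and 1 to 3 without 1 library. In the limma fits, Dbi fell under the fold threshold each time. Cd36, with day 1 means of 0.90 FPKM in siCtrl and 0.60 in siPRMT1 cells, was not tested in the limma fits with a filter. In the limma fit with no filter it was tested and not called (-0.25, adjusted p = 0.117). The count called lower at day 3, 1 as reported, was 3 with no fold threshold, which also gave 1 called higher. Of all genes tested, 8.94% were lower and 7.54% higher at that setting. The count lower was 2 with voom weights (with Lpl), 2 with suffixed names summed (with Angptl4) and 1 to 2 without 1 library. The count called lower from day 1 to day 3, 0 as reported, was 1 (Vldlr) with no fold threshold in siCtrl and in siPRMT1 cells, where 28.7% and 31.2% of all genes were lower. It was 1 with voom weights in siCtrl cells and 0 to 1 without 1 library. The count with a higher interaction, 1 as reported, was 2 with DESeq2, with the replicate block and with voom weights (with Dbi), 3 without the filter on low counts (with Dbi and Fabp4) and 1 to 2 without 1 library. Over all genes, 1123 higher became 2255 with voom weights. The counts over all genes with DESeq2, the block or no filter are not given here. Beside -0.44 at day 1 and 3.20 in siCtrl cells from FPKM, the median log2 ratio of group means from CPM was -0.54 and 3.09.

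The sign of Slc27a1 at day 3 turned without a filter on low counts (0.00178) and with voom weights (0.0201), and its values without 1 library ran from -0.0937 to 0.0714. The interaction of Vldlr turned in limma on log2(FPKM + 1), with and without filter (-0.0231 each), and with a pseudocount of 0.1 (-0.0210), and ran from -0.0350 to 0.0934 without 1 library. That of Cd36 turned in limma on log2(FPKM + 1), with and without filter (-0.0992 each), and that of the summed Angptl4 ran from -0.0803 to 0.112 without 1 library. None of these had passed the test, and the cause was not tested.

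Replicate numbers share no stated origin, and the correlations of same-numbered libraries were mixed (-0.0565, 0.186 and 0.274 at day 1, 0.202, 0.0958 and -0.0231 at day 3), so the pairing was not used. With the replicate block, Fabp4 at day 1 was called (-0.52, adjusted p = 0.0344) and Dbi gained the interaction (0.40, adjusted p = 0.0416), and no other call of the 8 genes changed. Fabp4 at day 1 was also called by DESeq2 (-0.51, adjusted p = 0.0420) and with 12 libraries in 1 model (-0.55, adjusted p = 0.0220), with adjusted p from 0.0220 to 0.262 over all alternatives. Over all genes, 267 higher and 220 lower at day 1 became 574 and 399 with voom weights, 441 and 599 with no fold threshold, 166 and 80 in limma on FPKM (103 and 50 with no filter, and 113 lower with a pseudocount of 0.1), and as few as 61 and 62 without 1 library (siPRMT1 replicate 3). At day 3, 399 and 534 became 1058 and 1255 with no fold threshold and 144 and 244 in limma on FPKM (114 and 228 with no filter, 228 and 341 with a pseudocount of 0.1). Of the other pathway genes, 7 lower at day 3 became 4 with DESeq2, with at least 10 counts in every library and in the limma fits, and 17 with no fold threshold. Apoc3, Angptl8 and Lipg fell to the filter on mean FPKM, so the limma fits with a filter did not test them. At day 1, 2 higher and 2 lower became 1 and 0 in the limma fits, of which those with a filter did not test Lrp8. For the interaction, 1123 higher and 676 lower became 2255 and 2015 with voom weights, 741 higher in limma on FPKM with a pseudocount of 0.1, 549 higher in limma on FPKM with no filter, and 671 to 1760 and 359 to 1974 without 1 library. The other pathway genes, 3 higher and 4 lower, became 6 and 15 with voom weights, and 1 higher in the limma fits, with 7 lower in those with a filter. Gpihbp1 had at most 3 counts in a library, and Cd36 at day 1 had 47 to 157.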
